A study of Mus musculus with 6 samples.

Results

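Notch is a signalling pathway between neighbouring cells in which a ligand of the Delta or Jagged type on one cell binds a Notch receptor on the next, which is then cut by an ADAM protease and by γ-secretase. The released intracellular domain enters the nucleus and, bound to the DNA-binding protein RBPJ, turns on a set of target genes. Without the Notch domain RBPJ can also hold such genes down together with co-repressors. In blood vessels the pathway is known for arterial identity, for the restraint of sprouting and for the contact between endothelial cells (ECs) and the mural cells around them. Its best known targets are transcriptional repressors of the Hey and Hes families.

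The expression of 8 genes known as transcriptional targets of Notch, Hey1, Hey2, Heyl, Hes1, Hes5, Nrarp, Dtx1 and Myc, was examined in RNA-seq of sorted kidney ECs from mice with and without a conditional deletion of Rbpj in the endothelium. The genes were taken by name from the deposited table, by a rule that uses no measured value, and are 8 of the 55401 genes it lists. Of these, 7 were among the 18438 genes that passed a filter on low counts and were tested, and Hes5 was not. Both groups were male littermates of a line whose transgene is labelled B6-Tg(Cdh5(PAC-cre/ERT21Rha and whose floxed allele of Rbpj (Rbpsuh in older naming) is labelled Rbpsuh tm3Hon/Rbrc, and both received 5 intraperitoneal injections of 1.5 mg tamoxifen at 8 weeks of age. The CTRL group had the genotype Cre -/-; Rbpjf/f, and the group labelled RbpjDEC (RbpjΔEC in the following) had Cre +/-; Rbpjf/f. In the latter, the Cre recombinase was driven by the endothelial Cdh5 promoter and activated by tamoxifen, so that recombination was limited to cells using this promoter. Kidneys were harvested 12 weeks after induction, at a labelled age of 21 weeks, and CD31+ CD45- cells were sorted. There were 3 libraries per group. Since the controls lacked Cre, an effect of Cre itself and of the Rbpj deletion cannot be told apart.

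Libraries held between 39649171 and 47726850 counts on genes, so that 3 counts, taken as the floor, came to 0.0634 to 0.0749 CPM in the libraries (CPM are counts divided by the library's TMM-adjusted total, from edgeR). CTRL 1 stood apart in that 33764 genes had a count in it, while the other 5 libraries had 25629 to 26785 such genes, and values without it are given below. The endothelial label was checked against its defining markers. Pecam1 (CD31) was between 1889 and 2324 CPM and Cdh5 (VE-cadherin) between 1456 and 1934 CPM in the 6 libraries. Ptprc, which encodes CD45, was between 0.535 and 3.92 CPM, and the T cell marker Cd3e was at 0 in all 6. Rbpj itself had 28.1, 29.7 and 29.8 CPM in CTRL 1 to 3, against 28.9, 26.1 and 29.6 CPM in RbpjΔEC 1 to 3. These groups overlapped, and counts over the whole gene do not show the floxed part alone.

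To see what the genes have in sequence, their promoters were read from RefSeq on GRCm38.p6, over the 250 bases before the start of each gene. A promoter was found for 4 of the 8 genes, Hey2, Hes5, Nrarp and Dtx1, and not used here for Hey1, Heyl, Hes1 and Myc. The core sequence bound by RBPJ, TGGGAA, was searched on both strands. Hey2 and Hes5, which hold it, are shown because their families are the classical targets, and Nrarp because it was the 1 gene that passed the test between the genotypes. All are written 5′ to 3′ along the strand of the gene, and capitals mark the RBPJ core, which reads TTCCCA where it lies on the opposite strand.
Hey2: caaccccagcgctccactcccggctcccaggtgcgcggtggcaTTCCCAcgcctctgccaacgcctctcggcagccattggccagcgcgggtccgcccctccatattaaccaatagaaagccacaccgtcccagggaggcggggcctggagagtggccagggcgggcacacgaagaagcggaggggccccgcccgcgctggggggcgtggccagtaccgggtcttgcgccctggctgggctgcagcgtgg
Hes5: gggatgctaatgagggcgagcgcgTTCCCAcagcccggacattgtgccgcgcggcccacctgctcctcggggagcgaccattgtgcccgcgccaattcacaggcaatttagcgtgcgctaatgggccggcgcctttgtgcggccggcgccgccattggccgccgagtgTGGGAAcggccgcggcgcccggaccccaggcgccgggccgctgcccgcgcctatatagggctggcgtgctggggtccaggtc
Nrarp: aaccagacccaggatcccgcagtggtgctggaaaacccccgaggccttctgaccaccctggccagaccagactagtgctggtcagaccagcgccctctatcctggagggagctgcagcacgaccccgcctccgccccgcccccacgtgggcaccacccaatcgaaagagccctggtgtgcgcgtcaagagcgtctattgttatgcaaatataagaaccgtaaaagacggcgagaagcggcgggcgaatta

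The Hey2 promoter (chr10:30842784-30843033, minus strand) held 1 core at 207 to 202 bases upstream of the start, on the strand opposite to the gene. Its window reaches a few bases into the gene as GENCODE M21 draws it. The Hes5 promoter (chr4:154960673-154960922, plus strand) held 2, at 226 to 221 bases upstream on the opposite strand and at 82 to 77 bases upstream on the strand of the gene. Both Hes5 sites and the Hey2 site also carried the longer form GTGGGAA. The Nrarp promoter (chr2:25180508-25180757, plus strand) held neither form within these 250 bases, nor did that of Dtx1. Nrarp had the letters CACNAG, known as the N box of Hes proteins, at 179 to 174 and at 79 to 74 bases upstream on the opposite strand, and the palindrome CACGTG, an E box, at 108 to 103 bases upstream. Dtx1 had CACNAG at 107 to 102 bases upstream of its RefSeq start on the opposite strand, in a window that lies wholly inside the gene in GENCODE M21. Of 32851 RefSeq promoters of this length, 21.6% held TGGGAA, 5.42% GTGGGAA, 36.7% CACNAG and 6.02% CACGTG on either strand. These are matches of letters and not measured binding.

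The genes spanned a wide range of levels in kidney ECs. Compared per length (RPKM, the CPM divided by kilobases of exon, from the exonic length in GENCODE M21), Hes1 was highest in CTRL with 58.0 ± 10.4 RPKM (SD, n = 3). Nrarp came next with 13.2 ± 0.865 RPKM, followed by Hey1 with 6.04 ± 0.897 RPKM. Hey2 and Myc, with 1.67 ± 0.316 and 1.11 ± 0.207 RPKM, had overlapping levels in CTRL. Heyl, Dtx1 and Hes5 were far lower, with 0.147 ± 0.0369, 0.112 ± 0.0431 and 0.0271 ± 0.0242 RPKM. The levels of Heyl and Dtx1 overlapped. In RbpjΔEC the first 3 places were held by the same genes, with 62.4 ± 4.38 RPKM for Hes1, 18.3 ± 1.77 RPKM for Nrarp and 3.57 ± 0.868 RPKM for Hey1. Myc and Hey2 stood in the reverse order, with 1.83 ± 0.535 RPKM for Myc and 1.04 ± 0.0726 RPKM for Hey2 and no overlap between them. At the low end Heyl (0.0752 ± 0.0368 RPKM) overlapped with Dtx1 (0.0627 ± 0.0370 RPKM), and Dtx1 with Hes5 (0.0296 ± 0.0220 RPKM).

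**Figure D1:**
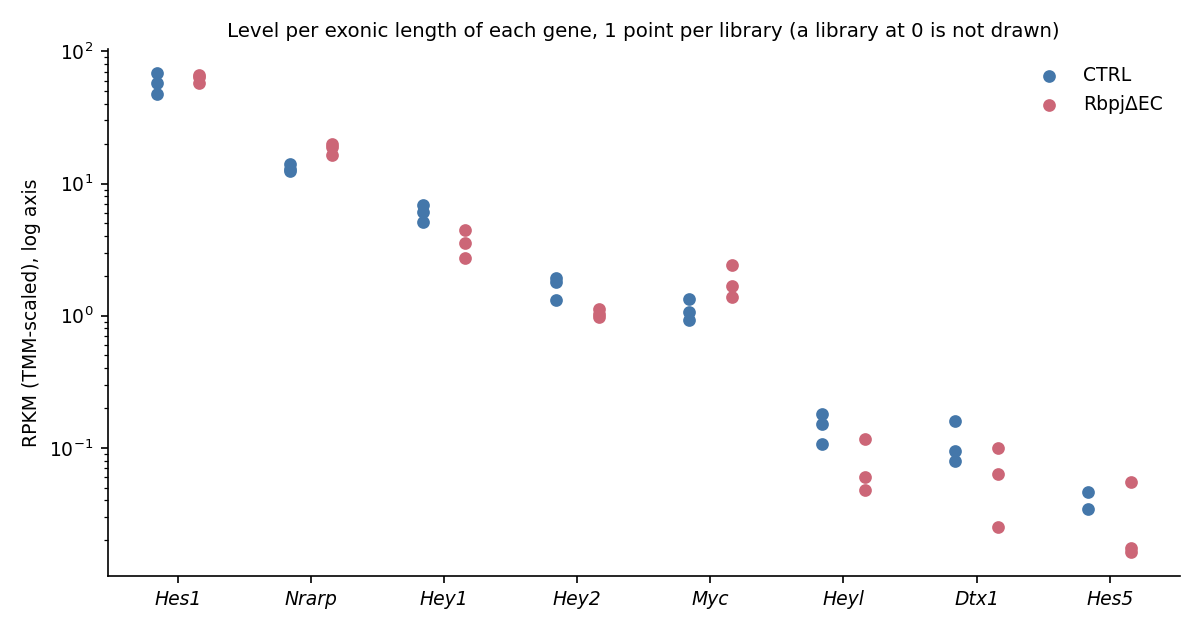
Level of each gene in RPKM (vertical log axis) with 1 point per library, CTRL in blue and RbpjΔEC in red; 1 library at 0 counts (Hes5 in CTRL 1) is not drawn. Hes1 lies highest in both groups, all Myc points lie above all Hey2 points in RbpjΔEC but not in CTRL, and Heyl, Dtx1 and Hes5 lie below 1 RPKM.

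The Hey family encodes basic helix-loop-helix repressors that carry arterial identity downstream of Notch. Hey1 (ENSMUSG00000040289.8, chromosome 3 from 8663359 to 8667256, minus strand) had 16.7, 19.9 and 22.6 CPM in CTRL 1 to 3, against 11.5, 8.92 and 14.6 CPM in RbpjΔEC 1 to 3. Every RbpjΔEC library lay below every CTRL library, with RbpjΔEC 2 lowest and RbpjΔEC 3 nearest to CTRL. The log2 fold change of Hey1 was -0.76 (95% interval -1.15 to -0.37) with an adjusted p of 0.0722 (edgeR quasi-likelihood fit, Benjamini-Hochberg), which did not pass 0.05. Hey2 (ENSMUSG00000019789.9, chromosome 10 from 30832359 to 30842801, minus strand), its closest relative in arterial endothelium, had 6.04, 8.79 and 8.22 CPM in CTRL 1 to 3, against 4.71, 5.13 and 4.47 CPM in RbpjΔEC 1 to 3. These groups did not overlap either, although CTRL 1 came close to RbpjΔEC 2. The log2 fold change of Hey2 was -0.69 (95% interval -1.08 to -0.30), with an edgeR adjusted p of 0.0859 that also missed the threshold. In DESeq2's Wald test with Benjamini-Hochberg adjustment over the same genes both passed, Hey1 at 0.00158 and Hey2 at 0.0147, where 5.12% of all tested genes passed, so the call for each depended on the test.

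Heyl (ENSMUSG00000032744.4, chromosome 4 from 123233556 to 123249875, plus strand), the third member of the family, is known from vascular smooth muscle as well as from ECs. It had 37, 26 and 33 counts in CTRL 1 to 3, against 11, 13 and 24 counts in RbpjΔEC 1 to 3, or 0.751 ± 0.189 CPM (SD, n = 3) against 0.385 ± 0.188 CPM. The groups overlapped in CPM, as RbpjΔEC 3 lay above CTRL 2. Its log2 fold change was -0.96 with a 95% interval from -2.01 to 0.08 (edgeR adjusted p = 0.324), wide enough to hold both 0 and the estimates for Hey1 and Hey2. Of 13 tested mural markers 3 passed the threshold, all lower in RbpjΔEC (Acta2 with a log2 fold change of -1.30, Myh11 with -1.08 and Rgs5 with -0.88), where 1.13% of all tested genes passed in either direction. At an unadjusted p under 0.05 the list had 8 lower and 1 higher, beside 8.62% and 8.88% of all tested genes. The one that was higher, Kcnj8, had a log2 fold change of 0.93 (edgeR adjusted p = 0.162) and, like Abcc9 with 1.03 (edgeR adjusted p = 0.307), lay above CTRL in every RbpjΔEC library. These channel genes of pericytes were named after their values were seen. The summed level of the list was between 271 and 323 CPM in CTRL and between 233 and 260 CPM in RbpjΔEC, with none of Acta2, Myh11, Rgs5, Pdgfrb and Cspg4 at 0 in any library. The part of these cells in the Heyl values was not tested. In such bulk samples fewer cells of a type and less RNA per cell cannot be told apart.

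Added up, Hey1, Hey2 and Heyl had 23.7, 29.2 and 31.6 CPM in CTRL 1 to 3, against 16.4, 14.4 and 19.6 CPM in RbpjΔEC 1 to 3. Every RbpjΔEC library thus lay below every CTRL library, with means of 28.2 ± 4.05 and 16.8 ± 2.66 CPM (SD, n = 3). As Hey1 and Hey2 make up nearly all of the sum and each was lower without overlap, the sum adds no test of its own. The log2 ratio of Hey2 to Hey1 was -1.37 ± 0.166 in CTRL and -1.26 ± 0.454 in RbpjΔEC, with overlapping groups (exact permutation test, two-sided, p = 0.8). Of 12 tested arterial markers, a list that includes Hey1, 1 passed the threshold in edgeR (Fbln5, an elastic fibre protein, with a log2 fold change of -0.72) and 9 had an unadjusted p under 0.05 and were lower, beside 1.13% of all tested genes past the threshold and 8.62% lower by the unadjusted p. The median log2 fold change of the 12 was -0.59. The summed level of this list was between 2597 and 2792 CPM in CTRL and between 2109 and 2237 CPM in RbpjΔEC. Efnb2 weighed most in this sum, with a mean of 921 CPM in CTRL and a log2 fold change of -0.16. Pan-endothelial markers summed to between 26337 and 29710 CPM in CTRL and between 24544 and 25442 CPM in RbpjΔEC, and their part and that of the arterial cells in the Hey values was not tested.

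**Figure D2:**
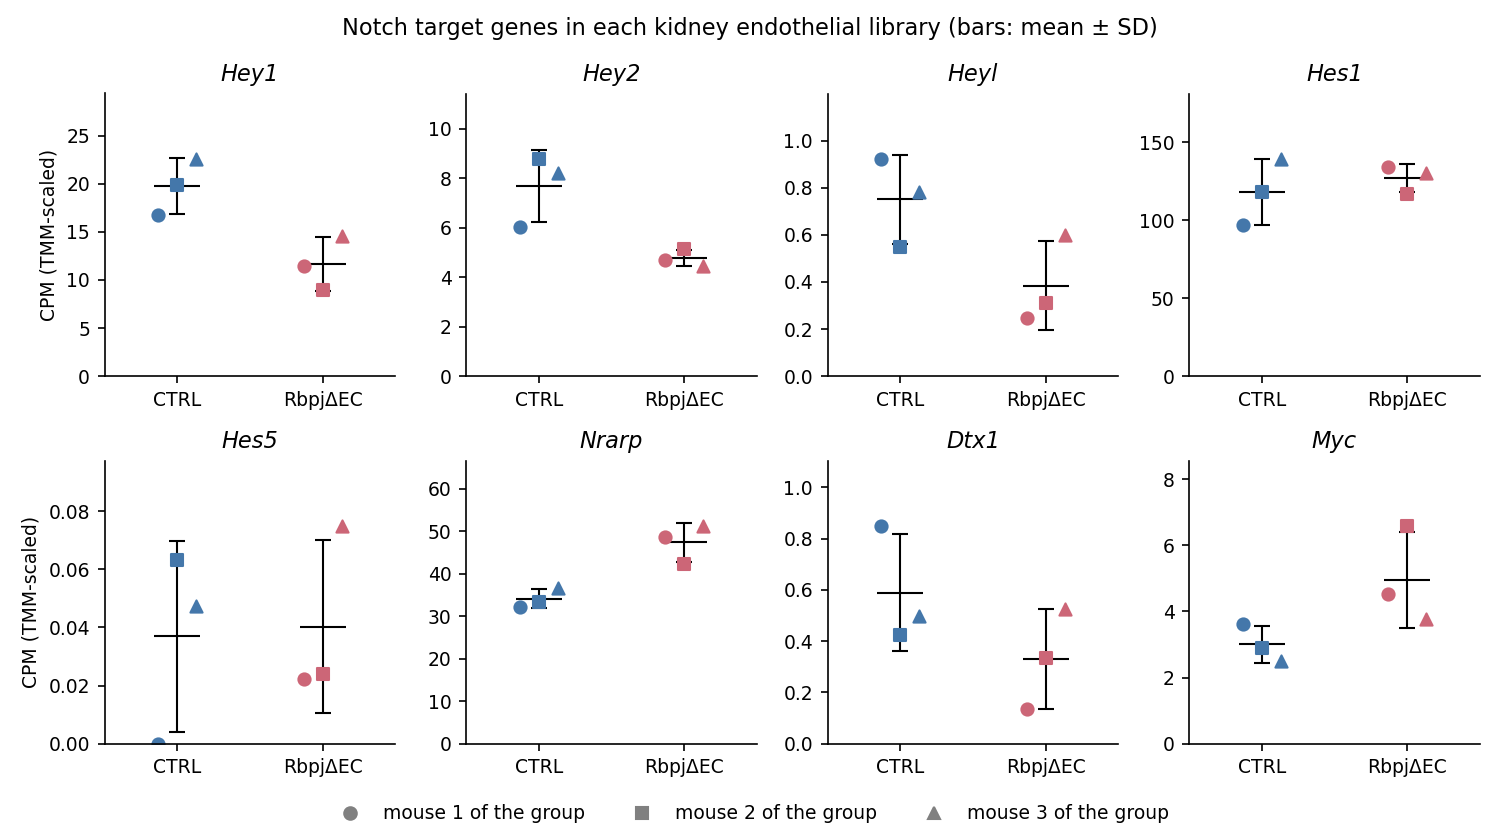
CPM (vertical axes, each from 0) of the 8 genes in the 3 CTRL (blue) and 3 RbpjΔEC (red) libraries, with symbols for the number of the mouse in its group and bars for the mean ± SD. The RbpjΔEC points of Hey1 and Hey2 all lie below the CTRL points, those of Nrarp and Myc all lie above them, and the groups overlap for Heyl, Hes1, Hes5 and Dtx1.

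The Hes genes encode the other family of Notch-driven repressors, which also hold down their own transcription. Hes1 (ENSMUSG00000022528.8, chromosome 16 from 30064384 to 30067796, plus strand) had 96.8, 118.0 and 139.3 CPM in CTRL 1 to 3, against 133.9, 117.0 and 130.3 CPM in RbpjΔEC 1 to 3. All RbpjΔEC values lay within the range of the CTRL libraries, and the CTRL libraries were the more widely spread. The log2 fold change was 0.11 (95% interval -0.16 to 0.37, edgeR adjusted p = 0.691). The lower bound of this interval lies above the estimates for Hey1 and Hey2. In the ratio of Hes1 to Hey1 within each library, which is free of the scaling between libraries, the log2 values were 2.53, 2.57 and 2.62 in CTRL 1 to 3, against 3.54, 3.71 and 3.16 in RbpjΔEC 1 to 3. The groups did not overlap and differed by 0.90. An exact permutation test (two-sided) gave p = 0.1, which is the lowest value possible with 3 mice a group, and 0.167 after Benjamini-Hochberg adjustment over the 10 sums and ratios computed.

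Hes5 (ENSMUSG00000048001.7, chromosome 4 from 154960923 to 154962371, plus strand), best known as a Notch target in neural progenitors, had 0, 3 and 2 counts in CTRL 1 to 3, against 1, 1 and 3 counts in RbpjΔEC 1 to 3. No library exceeded the floor of 3 counts, and no fold change is given. A gene annotated on the opposite strand, Gm20421, overlaps Hes5 and had 13 counts in all, against 10 for Hes5. Whether counting used the strand was not stated, so counts this low cannot be assigned with certainty. Of 11 other genes of the Hes and deltex families, 8 were tested by edgeR, and 0 passed the threshold, with 0 also at an unadjusted p under 0.05 and 0 by DESeq2, beside 1.13%, 17.5% and 5.12% of all tested genes. Their median log2 fold change was 0.07, against 0.01 over all tested genes. The 3 with the smallest p were Dtx4, Hes7 and Bhlhe40, with log2 fold changes of 1.21, 0.70 and 0.11.

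Nrarp and Dtx1 act back on the pathway. Nrarp (ENSMUSG00000078202.3, chromosome 2 from 25180758 to 25183339, plus strand, a single exon) encodes an ankyrin repeat protein that binds the Notch-RBPJ complex and lowers its activity. It had 32.2, 33.4 and 36.5 CPM in CTRL 1 to 3, against 48.6, 42.2 and 51.1 CPM in RbpjΔEC 1 to 3. All RbpjΔEC libraries lay above all CTRL libraries, with CTRL 3 and RbpjΔEC 2 the nearest to each other. The log2 fold change was 0.47 (standard error 0.0922, 95% interval 0.27 to 0.68, edgeR adjusted p = 0.0377), and Nrarp was the only one of the 7 tested genes to pass the threshold, which 1.13% of all tested genes passed. The pass did not hold without CTRL 1 (adjusted p = 0.144), without CTRL 3 (0.0929) or without RbpjΔEC 1 (0.165) in edgeR, while the log2 fold change kept its sign and stayed between 0.42 and 0.55 over the libraries left out. A gene annotated on the opposite strand, Gm38287, covers most of the Nrarp exon and had 144 counts in all, against 10413 for Nrarp.

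The levels of Nrarp and Hey1 lay further apart in RbpjΔEC than in CTRL. The log2 ratio of Nrarp to Hey1 was 0.95, 0.75 and 0.69 in CTRL 1 to 3, against 2.08, 2.24 and 1.81 in RbpjΔEC 1 to 3. The difference was 1.25, given as a description, since the separation of the groups in this ratio follows from that in each gene. Against Hey2 the log2 ratio of Nrarp had means of 2.16 ± 0.246 in CTRL and 3.31 ± 0.242 in RbpjΔEC (SD, n = 3), which is a description for the same reason. Against Hes1 its means were -1.78 ± 0.176 and -1.43 ± 0.0680 without overlap (exact permutation test, two-sided, p = 0.1, adjusted 0.167).

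Dtx1 (ENSMUSG00000029603.15, chromosome 5 from 120680202 to 120711927, minus strand), an E3 ubiquitin ligase of the deltex family that binds Notch receptors, had 34, 20 and 21 counts in CTRL 1 to 3, against 6, 14 and 21 counts in RbpjΔEC 1 to 3. CTRL 1 was highest and RbpjΔEC 1 lowest, and RbpjΔEC 3 lay within the CTRL range. In CPM the means were 0.589 ± 0.227 and 0.331 ± 0.195 (SD, n = 3), a log2 fold change of -0.83 with a 95% interval from -2.06 to 0.39 (edgeR adjusted p = 0.473).

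Myc (ENSMUSG00000022346.16, chromosome 15 from 61985391 to 61990374, plus strand), a transcription factor of growth and ribosome production, is a Notch target in T cells and also responds within minutes to many stimuli. It had 3.62, 2.89 and 2.51 CPM in CTRL 1 to 3, against 4.53, 6.58 and 3.77 CPM in RbpjΔEC 1 to 3. All RbpjΔEC libraries lay above CTRL, but RbpjΔEC 3 only slightly above CTRL 1. The log2 fold change was 0.72 (95% interval 0.18 to 1.26, edgeR adjusted p = 0.162), which did not pass. The log2 ratio of Myc to Hey2 was -0.74, -1.60 and -1.71 in CTRL 1 to 3, against -0.06, 0.36 and -0.25 in RbpjΔEC 1 to 3, a difference of 1.37, again a description, as the groups did not overlap for either gene. Of 23 tested immediate-early genes, a list without Myc, 8 passed the threshold in edgeR and all 8 were higher (0.575% of all tested genes passed and were higher), among them Egr1 with a log2 fold change of 0.66 and Btg2 with 0.58. Their summed level was between 8063 and 9702 CPM in CTRL and between 10532 and 12177 CPM in RbpjΔEC, and its part in the values of Myc and Nrarp was not tested. Of 9 tested partners and antagonists of MYC, 1 had an unadjusted p under 0.05, the antagonist Mxd1 (log2 fold change 0.27, edgeR adjusted p = 0.145, which did not pass), no more than the share of 17.5% over all tested genes. Next by p were Mlx with a log2 fold change of -0.20 and Mycn with 0.43.

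**Figure D3:**
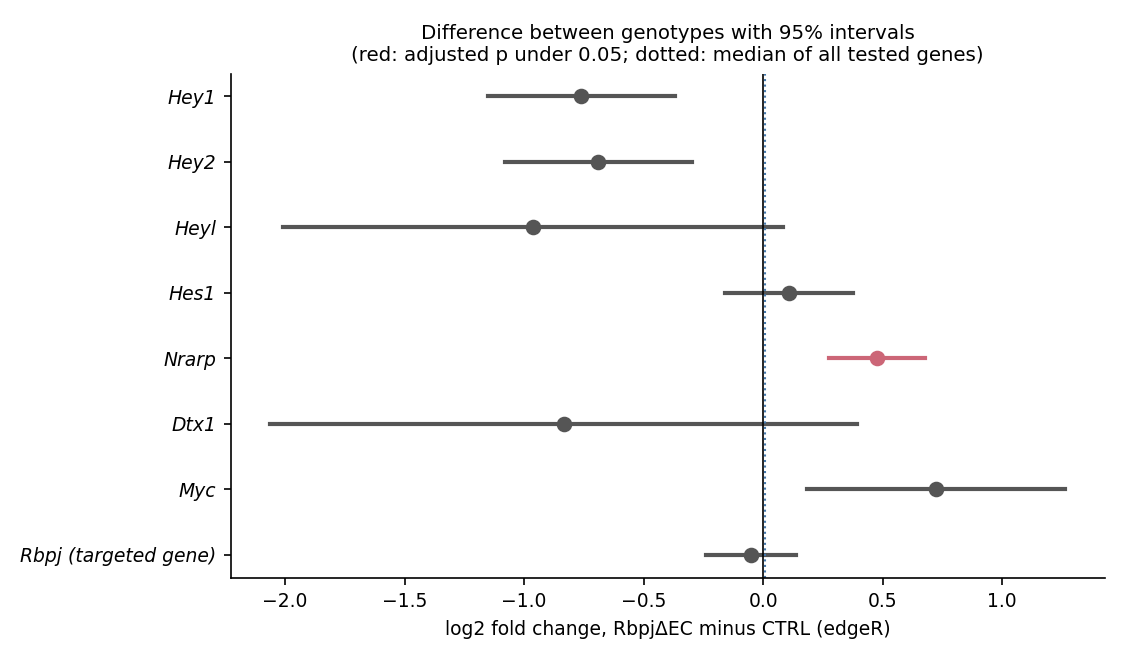
Log2 fold change of RbpjΔEC minus CTRL (horizontal axis) for the 7 tested genes and for Rbpj, points with 95% intervals from the edgeR fit, red for an adjusted p under 0.05, and a dotted line at the median of all tested genes (0.01). Nrarp alone is red, the intervals of Hey1, Hey2 and Myc also leave out 0, and those of Heyl and Dtx1 are the widest.

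Taking the 7 tested genes together, 1 passed the adjusted threshold, higher in RbpjΔEC, where 1.13% of all 18438 tested genes passed in either direction, 0.575% higher and 0.559% lower. By an unadjusted p under 0.05 in edgeR, Nrarp and Myc were higher and Hey1 and Hey2 lower, 4 of 7 beside 17.5% of all tested genes (8.88% higher and 8.62% lower). The groups did not overlap for the same 4, beside 23.0% of all tested genes (11.4% higher and 11.6% lower). The list had no common direction, with 3 positive and 4 negative log2 fold changes, where 48.9% of all genes were negative. Its median was -0.69, against 0.01 for all genes. This median lies on Hey2 and depends on the weakly expressed Heyl and Dtx1, since it became 0.11 when only genes with at least 1 CPM in 3 libraries were kept. The summed CPM of the 8 genes, which Hes1 dominates, was 183.9 ± 26.7 in CTRL and 196.5 ± 13.9 in RbpjΔEC (SD, n = 3), with overlapping groups (exact permutation test, two-sided, p = 0.7).

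The libraries were not ordered alike over the genes. CTRL 1 was the lowest CTRL library for Hey1, Hey2, Hes1 and Nrarp and the highest for Heyl, Dtx1 and Myc. RbpjΔEC 3 was nearest to CTRL for Hey1, Heyl, Dtx1 and Myc and farthest from it for Hey2 and Nrarp. This library also had the highest summed level of the 12 tubule markers, 484 CPM, against 179 and 134 CPM in RbpjΔEC 1 and 2 and 309 to 443 CPM in CTRL. The sum joins markers that went opposite ways. Lrp2 had 129 CPM in RbpjΔEC 3, against 29.2 and 29.0 CPM in RbpjΔEC 1 and 2 and 13.7 to 40.4 CPM in CTRL. Umod had 39.9 CPM in RbpjΔEC 3, against 42.6 and 18.3 CPM in RbpjΔEC 1 and 2 and 56.0 to 106 CPM in CTRL. The part of tubule RNA in the values of RbpjΔEC 3 was not tested. Relative to the CTRL mean, Hey1 lay at log2 values of -0.76, -1.13 and -0.42 in RbpjΔEC 1 to 3, and Hey2 at -0.68, -0.56 and -0.75. Without CTRL 1, the log2 fold changes were -0.87 for Hey1, -0.84 for Hey2 and 0.87 for Myc, larger than with it, while that of Hes1 was -0.022 and that of Dtx1 -0.49. Nrarp was 0.43 and Heyl -0.79 without this library. Leaving out RbpjΔEC 3 instead, Hey1 had -0.95 and passed (edgeR adjusted p = 0.0104), Hey2 had -0.65, Heyl -1.42, Dtx1 -1.33, Hes1 0.09, Nrarp 0.42 and Myc 0.89.

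**Figure D4:**
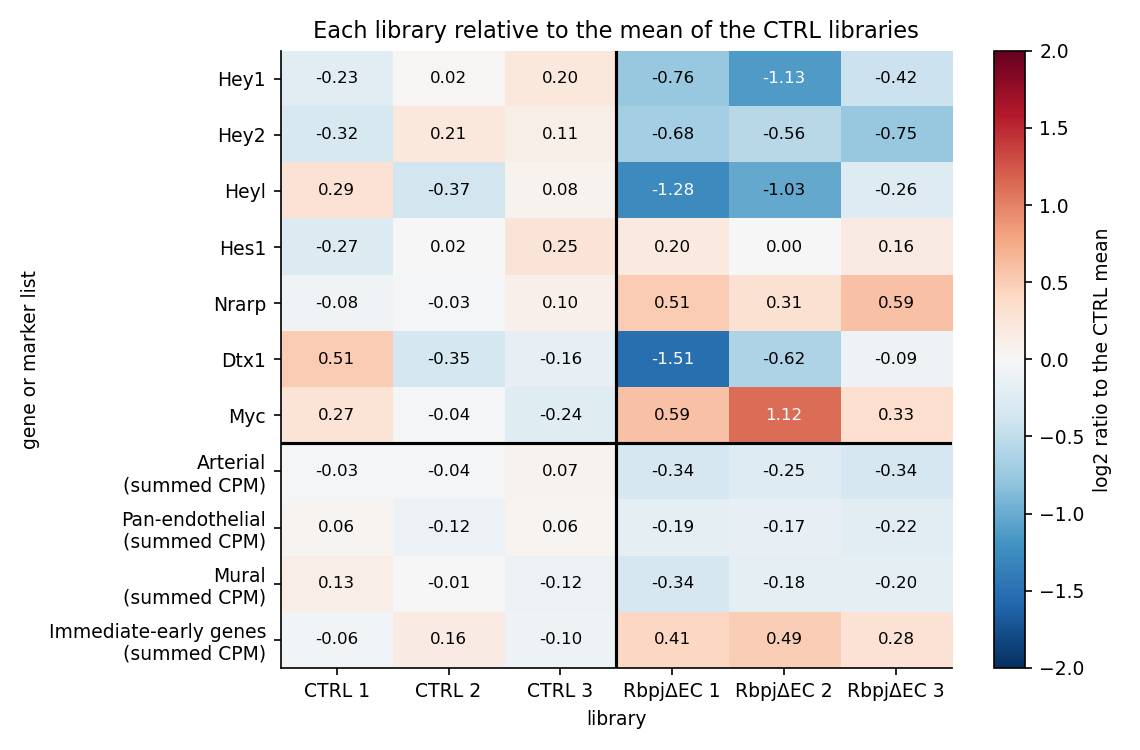
Log2 ratio of each library to the mean of the CTRL libraries (colour scale and printed values, with 0.1 CPM added to single genes) for the 7 tested genes and, below the line, for the summed CPM of 4 gene lists. In the RbpjΔEC libraries Hey1 and Hey2 are blue and Nrarp and Myc red throughout, Hes1 stays within the range of the CTRL libraries, and the arterial, pan-endothelial and mural sums lie below 0 and the immediate-early sum above it.

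To set the 8 genes against the rest of the pathway, a list of 16 other genes known to respond to Notch was examined, of which 15 were tested. In edgeR 1 of them passed and was lower, the Notch ligand gene Jag1 (log2 fold change -0.54, adjusted p = 0.0368), and an unadjusted p under 0.05 was reached by 8 lower and 1 higher. Over all tested genes 1.13% passed, and 8.62% were lower and 8.88% higher by the unadjusted p. Notch3, the receptor of mural cells and also in the mural list, had a log2 fold change of -1.16 (adjusted p = 0.0522), and Gja4, an arterial connexin, one of -0.68 (adjusted p = 0.0622). Gja4, Gja5, Efnb2 and Sox17 are also in the arterial list, so the counts for these lists share genes. The median of the 15 was -0.23. The number past the threshold was 6 under DESeq2, which called 5.12% of all tested genes. With 1 library left out in edgeR it was 0 without CTRL 3, RbpjΔEC 1 or RbpjΔEC 2, so that Jag1 did not pass there, 1 without CTRL 1, 2 without CTRL 2 and 4 without RbpjΔEC 3. Over all tested genes 0.125%, 0.11% and 0.25% passed without CTRL 3, RbpjΔEC 1 and RbpjΔEC 2. The shares were 0.284%, 3.65% and 2.73% without CTRL 1, CTRL 2 and RbpjΔEC 3. Of 42 tested genes of the pathway itself (receptors, ligands, processing enzymes and nuclear cofactors), 0 passed in edgeR and DESeq2 called 1, while an unadjusted p under 0.05 was reached by 8 lower and 4 higher in edgeR, the latter near the share of 8.88% over all tested genes. Their median was -0.05. This list held Rbpj but not the ligand genes Jag1 and Dll4 or the receptor gene Notch3, which were counted among the Notch-responsive genes above. The smallest p belonged to Numb, an inhibitor of Notch receptors, with 274, 273 and 268 CPM in CTRL 1 to 3, against 229, 224 and 225 CPM in RbpjΔEC 1 to 3. Its groups were well apart, but its log2 fold change was small at -0.27 and did not pass (edgeR adjusted p = 0.0622). Ncstn, a subunit of γ-secretase, and Adam17, a protease of the receptor, followed with -0.21 and -0.19.

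For the 4 genes with an unadjusted p under 0.05, the tested genes (mean level 10 CPM or more) with the most similar course over the 6 libraries were looked up. Likeness was the root mean square difference of log2 CPM after centring, over 8788 or 8789 genes, and it is a description without a test. Closest to Hey1 were Pi16 (0.0995), Syt15 (0.102) and Atoh8 (0.119). Pi16, which encodes a peptidase inhibitor, had 131.3, 153.7 and 163.0 CPM in CTRL 1 to 3, against 82.5, 68.3 and 93.2 CPM in RbpjΔEC 1 to 3, the same order of libraries as Hey1. Hey2 was followed most closely by Cxcl12 (0.123), the chemokine of CXCR4, and by Eps8l2 (0.123) and Tspan8 (0.125). Genes near to Nrarp were Sertad3 (0.0464) and Spaca6 (0.0714). Those nearest to Myc were Tcf15 (0.124), a transcription factor of endothelial fatty acid uptake, Vash1 (0.133) and Adam19 (0.146), and the groups overlapped for the last 2.

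**Figure D5:**
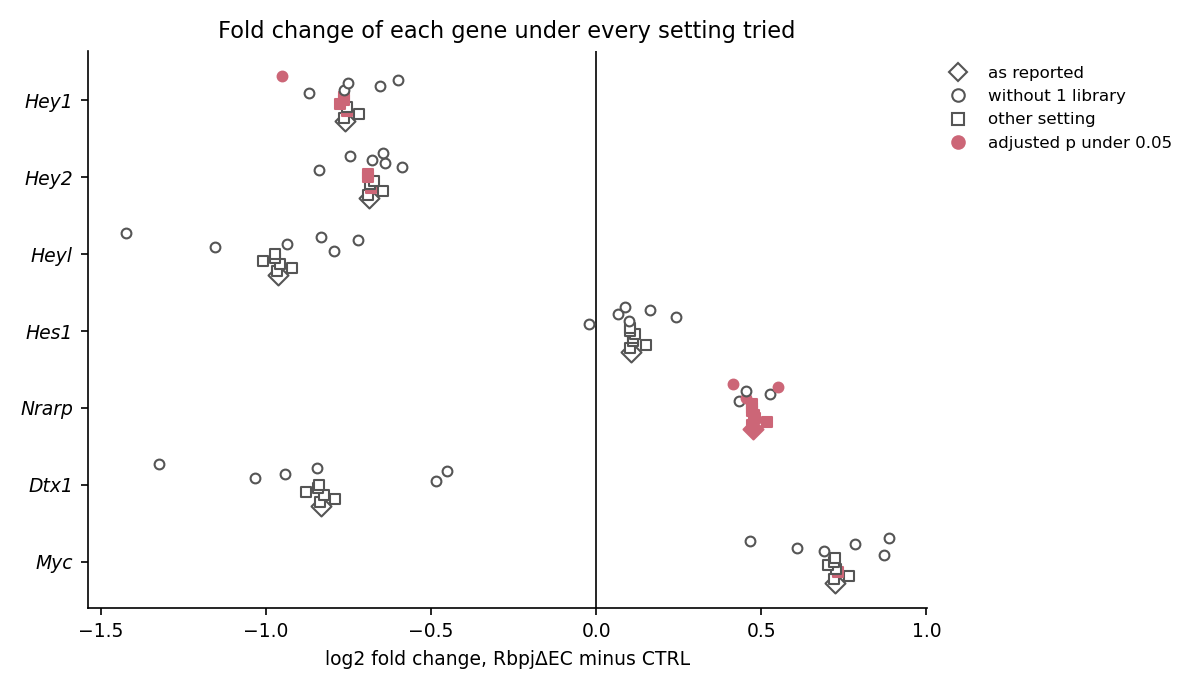
Log2 fold change of RbpjΔEC minus CTRL (horizontal axis) of each tested gene under every setting, diamonds as reported, circles without 1 library and squares for other settings, red for an adjusted p under 0.05. Hey1, Hey2, Heyl and Dtx1 stay below 0 and Nrarp and Myc above it in every setting drawn, while Hes1 crosses 0 without CTRL 1.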

How the data were processed

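RNA of sorted CD31+ CD45- kidney cells was made into stranded total RNA libraries by the authors, who aligned the reads to GRCm38.p6 and counted them on GENCODE M25 genes (the submitters' processing notes name bcl2fastq, Trim Galore 0.6.4, STAR 2.6.1d and featureCounts of Subread 1.6.4). The authors deposited whole-number counts per gene, without normalization. The titles of the samples gave the groups.

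Counts were analysed in R 4.3.3 with edgeR 4.0.16 (TMM, filterByExpr, estimateDisp, glmQLFit with robust estimation, glmQLFTest) and Benjamini-Hochberg adjustment over all 18438 tested genes, with a threshold of 0.05. The filter kept genes that reached the CPM of 10 counts in the median library, here 0.236, in at least 3 libraries. Dtx1 reached it in 5 of 6 libraries, Hes5 in 0 and the other 6 genes in all. DESeq2 1.42.0 was an alternative, beside other normalizations, filters, a replicate block and each library left out. Replicate numbers were not used as pairs in the main fit, as the deviations of same-numbered libraries correlated with r = 0.0231, 0.00916 and 0.00544. Positions and exonic lengths came from GENCODE M21 (GRCm38).

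The genes and lists were proposed with earlier results of these data known, although the rule for the 8 genes uses names alone. Beside the 8 genes and Rbpj, the text names in each list the 3 genes with the smallest p and those past the threshold, or examples of them, defining markers, 2 mural genes chosen after their values were seen, and the 3 genes nearest in course to each gene with an unadjusted p under 0.05, except 1 gene not reported here. Venous (7 tested), tubule (12), fibroblast (3) and leukocyte (6) markers had 1 gene each past the threshold, Vwf, Atp6v1b1 and Pdgfra lower and Cd68 higher, while 4 of 7 venous and 6 of 12 tubule log2 fold changes were positive and 4 of 6 leukocyte ones negative, and podocyte (5), lymphatic (4) and pan-endothelial (14) markers had 0 in edgeR, with 1, 2 and 5 at an unadjusted p under 0.05, where the shares over all tested genes were 1.13% and, by the unadjusted p, 17.5%. DESeq2 calls were not counted for these marker lists. Intervals cover the spread between 3 libraries a group.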

Additional observations from a re-analysis of the deposited data

How the results depend on the processing

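With 3 libraries a group the low genes Heyl, Dtx1 and Hes5 limit what can be seen, and the number of calls depended on the low-count filter, the test, the block and single libraries. Over the named genes, 76 of the alternative values kept direction and side of the threshold, 9 came to pass it, 3 no longer passed and 1 changed sign. Where a value changed, the cause was not tested unless the alternative tested other genes or fewer samples.

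Against 209 genes past the threshold, the number was 1436 with no low-count filter, 344 with the replicate number as a block, 944 with DESeq2 on the same genes, 584 with DESeq2 on all 38324 genes with a count (added after seeing the data), and 21 (without RbpjΔEC 1) to 700 (without CTRL 2) with 1 library left out. With library size alone 66.0% of the calls were higher (159 higher, 82 lower), against 50.7%. Of the Notch target genes, 1 passed, against 4 with no filter, 2 with the block, 3 with either DESeq2 fit, and 0 to 2 with 1 library left out (0 without CTRL 1, without CTRL 3 and without RbpjΔEC 1, and 2 without RbpjΔEC 3). Over all tested genes the share was 1.13% in the main fit, 3.75% with no filter, 1.87% with the block, and 5.12% and 1.52% with the DESeq2 fits. Without CTRL 1, CTRL 3, RbpjΔEC 1 and RbpjΔEC 3 it was 0.284%, 0.125%, 0.11% and 2.73%. Of the other Notch-responsive genes 1 passed, against 6 with no filter, 4 with the block, 6 with either DESeq2 fit and 0 to 4 with 1 library left out. For the other pathway genes, 0 became 1 with no filter and with either DESeq2 fit. The median log2 fold change of the Notch target genes, -0.69, was -0.29 with no filter and with DESeq2 on all genes, 0.11 with at least 1 CPM in 3 libraries, and -0.65 to -0.45 with 1 library left out.

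Hey1 (-0.76) passed with no filter (-0.75, adjusted p = 9.26e-07 in edgeR), with the block (-0.77, adjusted p = 0.0190 in edgeR) and with DESeq2 (-0.76, adjusted p = 0.00158, and 0.00285 on all genes), and ranged from -0.95 to -0.60 with 1 library left out (edgeR adjusted p = 0.0104 without RbpjΔEC 3, up to 0.249). Hey2 passed with no filter (-0.68, adjusted p = 0.0141 in edgeR) and with DESeq2 (-0.69, adjusted p = 0.0147, and 0.0492 on all genes), and ranged from -0.84 to -0.59. Nrarp ranged from 0.42 to 0.55. Myc passed with no filter (0.73, adjusted p = 0.0459 in edgeR) and ranged from 0.47 to 0.89. Hes1 ranged from -0.022 (without CTRL 1) to 0.24. Heyl ranged from -1.42 to -0.72 and Dtx1 from -1.33 to -0.45, and neither was tested with at least 1 CPM in 3 libraries. The block changed no other call of a named Notch target gene. The shared numbers were taken as names only, as no library's deviations correlated with those of its own number above 0.1. A pairing that touches few genes would not show in these correlations.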
